A study of Mus musculus with 100 samples.

Results

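The change from neural progenitors at day 8 to neurons at day 16 was followed in KI cultures of mouse embryonic stem cells. It rests on 4 poly(A) RNA libraries of the 100 samples in the series: clones 27 and 48 at day 8, and the same clones at day 16. The 4 were chosen by their titles, and they are among the 37 RNA tables that were read. The series asks what the histone methyltransferases MLL3 and MLL4, encoded by Kmt2c and Kmt2d, do through their enzyme activity in development. All neural cultures carried Mll3-/-. KI cells had the genotype Mll3-/-;Mll4KI/KI, in which the KI allele is not described further, and the reference cells used for comparison were Mll3-/-;Mll4flox/flox (flox, 2 libraries per day). No neural library of wild-type cells enters, so what both genotypes share with wild-type cells was not measured here. Aggregates received 5 µM retinoic acid after day 4. At day 8 they were dissociated, and the cells were plated on a PDL/laminin coat in N-2 medium and given B-27 medium 2 days later. The KI samples are 2 clones, and nothing in the labels says that libraries of a group came from separate cultures. The p-values thus measure the spread between samples, which may be technical. That spread was estimated over all 8 neural libraries together, flox included, and not from the KI clones alone.

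Neural progenitors are dividing cells held by SOX transcription factors and Notch signalling. Proneural factors of the basic helix-loop-helix (bHLH) class push them out of the cell cycle, after which they build axons, synapses and the channels that carry electrical activity. Retinoic acid, used here to start the process, is known to give progenitors a hindbrain and spinal cord character through Hox genes. MLL3 and MLL4 mono-methylate histone H3 at enhancers, the distal elements through which such programmes are switched.

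Gene-level totals were 43544110 and 48865690 reads in the KI libraries of day 8 and 54038130 and 59880727 at day 16. Levels are given as CPM, counts scaled to a common library size after TMM scaling (a correction of library totals for composition), always with clone 27 before clone 48. A count of 0 allows up to 3 reads, or 0.057 to 0.067 CPM in these 4 libraries, for counting error only. Over all 8 neural libraries 16439 genes could be tested. Kmt2c, deleted in all these cells by their labels, was read at 65.1 and 57.5 CPM at day 8 and at 90.1 and 101 CPM at day 16 (log2 fold change 0.64, SE 0.10, edgeR adjusted p = 5.01e-05). Kmt2d went from 248 and 185 CPM to 164 and 178 CPM (-0.34, SE 0.12, edgeR adjusted p = 0.0239). That call rests on clone 27: without its day 8 or its day 16 library the change was -0.11 or -0.27 (edgeR adjusted p = 0.37 and 0.14). A table with 1 value per transcript shows neither a deleted exon nor a point change, so these levels do not check the genotypes. Of the 10 listed genes of the MLL3/MLL4 complex, Kmt2c was the one that rose and 7 fell (8 called, a share near the 79.9% called over all tested genes), by up to 1.07 on the log2 scale for Kdm6a, the H3K27 demethylase of the complex.

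Between day 8 and day 16 most of the transcriptome of KI cells moved. By edgeR's quasi-likelihood test with Benjamini-Hochberg adjustment, 13130 genes (79.9%) passed an adjusted p of 0.05, 6691 higher (40.7%) and 6439 lower (39.2%) at day 16. A change of at least 2-fold was called for 8052 genes (49.0%), 4385 higher (26.7%) and 3667 lower (22.3%). Which direction held more genes depends on scaling: on library totals without TMM, 5857 were higher and 7409 lower, and at 2-fold 3879 and 4373. At the extremes, 529 of the 16439 genes rose and 155 fell at least 32-fold. These are fitted values, whose size is uncertain for genes near 0 reads on a day. The log2 ratios of the clones correlated with r = 0.983 and rho = 0.971 across the 16439 genes, which are not independent replicates. Counts of listed genes below are to be read against these shares, since a gene picked at random was more likely than not to be called. The median log2 fold change of all tested genes was 0.01, and -0.19 when library totals were used without TMM scaling. In bulk samples like these, fewer cells of a type and less RNA per cell cannot be told apart.

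**Figure D1:**
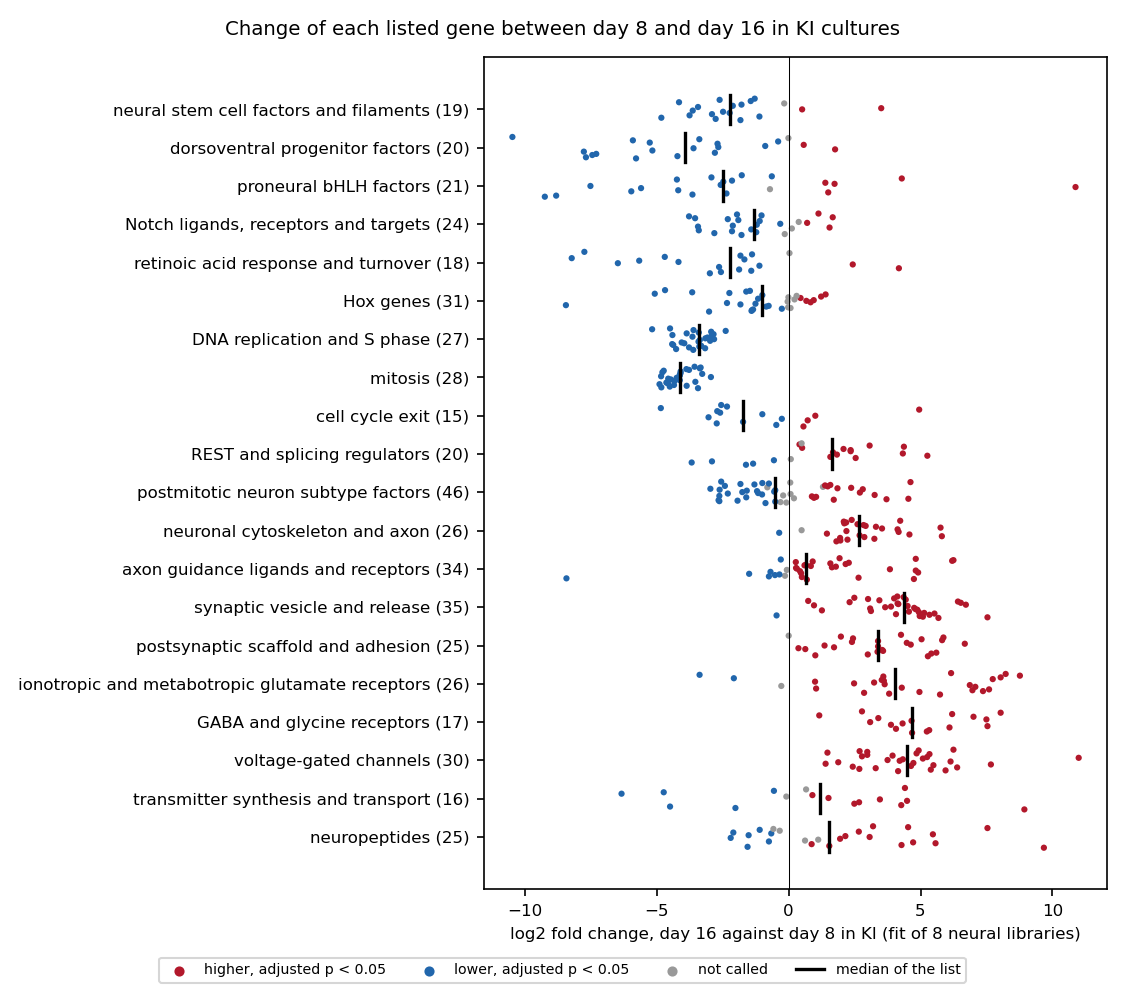
Log2 fold change between day 8 and day 16 in KI for each tested gene of 20 lists (1 point per gene, number tested in brackets, bars at list medians). Replication and mitosis genes lie wholly left of 0, with medians of -3.42 and -4.13. Vesicle genes other than Sypl and channel genes lie right of it, with medians of 4.36 and 4.48. The points of Neurod6 and Kcnj6, at 0 reads on day 8, depend on the prior count and are no measure of size. The same holds for Foxn4, at 0 reads on day 16, and for 1 Hox gene at 0 reads on a day.

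Factors that hold the progenitor state fell in both clones. Of 20 listed neural stem cell genes 19 were tested, and 16 were lower and 2 higher (median log2 fold change -2.24). Sox2, a core factor of neural stem cells, stood at 351 and 377 CPM on day 8 and at 52.6 and 54.3 CPM on day 16 (-2.77, SE 0.10, edgeR adjusted p = 4.38e-11). Sox3, its close relative, went further down, from 268 and 245 to 9.43 and 8.61 CPM (-4.83, SE 0.12). The filament genes Vim and Nes, which mark dividing neural precursors, fell by 2.24 and 2.91 on the log2 scale. In length-corrected units, the authors' RPKM (reads scaled by transcript length and library size), the mean of Vim went from 440 to 88.5 and that of Sox2 from 98.9 to 13.8. Day 8 and day 16 libraries did not overlap for any of these 4 genes. The share of all tested genes without overlap was not counted, so this and like statements below only describe the named genes. The pair that rose was Cdh2, the N-cadherin of neural tissue, and Fabp7, a fatty acid binding protein of radial glia. Fabp7 was at 27.5 and 40.2 CPM on day 8 and at 333 and 439 CPM on day 16 (3.51, SE 0.20, edgeR adjusted p = 2.69e-08). In a fit of the KI libraries alone it changed by 3.47 (edgeR adjusted p = 5.71e-05). Lin28b, an RNA-binding repressor of let-7, was at 29.4 and 33.7 against 26.6 and 29.6 CPM and was not called (-0.17, or -0.37 with edgeR adjusted p = 0.0162 on library totals), while its paralogue Lin28a fell from 12.1 and 13.3 to 0.102 and 0.0948 CPM (-6.98, SE 0.20).

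Genes that divide the neural tube from dorsal to ventral lost most of their RNA. Of 20 tested, 17 were lower and 2 higher, with a median of -3.92. Msx3, a dorsal homeobox gene and the highest of the list, dropped from 644 and 759 CPM to 4.48 and 4.42 CPM (-7.30, SE 0.13, edgeR adjusted p = 1.37e-12). Pax7 and Pax3, dorsal paired-box genes, changed by -7.69 (SE 0.22) and -5.79 (SE 0.13). Day 8 and day 16 libraries did not overlap for any of the 3 genes. Foxn4, which acts in interneuron progenitors, had 3.79 and 3.45 CPM on day 8 and 0 reads in both day 16 libraries. The 2 that rose were Dbx2, from 0.422 and 0.359 to 1.20 and 1.44 CPM, and Nkx6-2, from 3.51 and 3.27 to 5.34 and 4.70 CPM. Shh, the ventral ligand, was at 6.15 and 4.81 against 5.6 and 5.25 CPM and was not called.

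Proneural bHLH genes, which are switched on for a short time as a progenitor commits, were among the largest falls. Of 21 tested, 15 were lower and 5 higher, with a median of -2.48. Neurog1 went from 74.7 and 60.2 to 0.0815 and 0.133 CPM (-9.25, SE 0.21, edgeR adjusted p = 2.18e-12), and Neurog2 from 54.3 and 54.7 to 0.143 and 0.0948 CPM (-8.82, SE 0.17). At day 16 these levels are 4 and 7 reads of Neurog1 and 7 and 5 reads of Neurog2. Nhlh1, a bHLH gene of newly born neurons, fell by 7.52. Tcf3, the general partner of these factors, had the highest day 8 level and fell from 420 and 364 to 51.6 and 51.1 CPM. The 5 that rose are Neurod6, Id4, Bhlhe22, Olig1 and Atoh7, the last of them not called by DESeq2 (adjusted p = 0.118). Neurod6, a gene of differentiated neurons, had 0 reads in both day 8 libraries and 4.48 and 5.10 CPM at day 16. Inhibitors of the class split by member: Id1, Id2 and Id3 fell by 2.48, 2.15 and 4.24, while Id4 rose from 9.10 and 8.07 to 148 and 187 CPM (4.29, SE 0.13, edgeR adjusted p = 1.30e-11).

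Within the Notch pathway, the ligands Dll1 and Dll3, the receptors Notch1 and Notch3 and most targets were lower at day 16. In all 17 of 24 tested genes were lower and 4 higher, with a median of -1.32. Notch3 had the highest day 8 level of the list, and fell from 299 and 280 to 42.7 and 39.5 CPM (-2.82, SE 0.12). Nrarp, a feedback inhibitor induced by Notch, fell from 143 and 151 to 8.88 and 12.5 CPM (-3.78, SE 0.14), and Hes1, a repressor induced by Notch, from 127 and 139 to 14 and 10.6 CPM (-3.44, SE 0.13). Each of these 3 was lower in both clones with no overlap between days. The 4 that rose are the ligand gene Jag2 (1.55), the glycosyltransferase Rfng (1.67), Numbl (1.13), a relative of the Notch antagonist Numb, and Hey2 (0.70). Without clone 48 at day 8 the change of Hey2 was 0.47 (edgeR adjusted p = 0.0729). Rfng rose from 38.9 and 31.1 to 110 and 114 CPM, while its paralogues Lfng and Mfng fell by 2.31 and 3.55. Notch2 was at 96.8 and 80.6 against 84.9 and 75.3 CPM and was not called (-0.15, or -0.35 with edgeR adjusted p = 0.0157 on library totals).

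The cell cycle machinery went down as a block. All 27 genes of DNA replication and all 28 of mitosis that were listed were tested and called lower at least 2-fold. Their medians were -3.42 and -4.13, and the summed level of the mitosis list was 5389 and 5610 CPM at day 8 and 312.2 and 322.2 CPM at day 16. Top2a, the topoisomerase that untangles chromosomes, fell from 958 and 999 to 34.0 and 34.5 CPM (-4.84, SE 0.10, edgeR adjusted p = 1.93e-12). Mki67, a protein of the chromosome surface stained as a marker of proliferation, fell from 776 and 772 to 45.0 and 43.5 CPM (-4.13, SE 0.11). The clones differed little in either gene, and about as much of the mitosis RNA, as CPM, was left in each. Of the replication genes, Mcm7, a subunit of the helicase, had 427 and 411 CPM on day 8 and 46.4 and 37.6 CPM on day 16 (-3.32, SE 0.11), and the transcription factor E2f2 showed the largest fall of its list (-5.18, SE 0.12), from 62.3 and 58.6 to 1.61 and 1.72 CPM. Pcna, the sliding clamp, fell by 2.83 and Ccne2, the cyclin of the S phase entry, by 2.39, the smallest change of the 27. Mitosis RNA still present at day 16 was above the limit set by counting: Cdc25c, at 1.08 and 0.986 CPM, was the lowest of the 28.

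Replication and mitosis genes are known to be driven through different promoter elements, E2F sites and the cell cycle homology region (CHR), the latter often beside CCAAT boxes. These motifs were counted in RefSeq promoter windows of GRCm38.p6, 250 bases before to 50 after each start, on either strand. The submitters' processing notes name mm9, so no coordinate of the files is compared with these. E2F was searched as TTTCGCGC, TTTGGCGC, TTTCCCGC or TTTGCCGC, CHR as TTTGAA, and the CCAAT box as CCAAT. Promoters were found for 21 of the 27 replication genes (24 windows) and 21 of the 28 mitosis genes (22 windows). An E2F match stood in 41.7% of the replication windows and 4.55% of the mitosis windows, against 2.26% of all 32851 windows of that length and 3.66% of those of tested genes. A CHR match stood in 68.2% of the mitosis windows and 12.5% of the replication windows, against 17.9% of all and 12.2% of those of tested genes. CCAAT was in 70.8% of the replication and 81.8% of the mitosis windows, against 37.4% and 37.8%. It was also in 57.9% of the windows of proneural genes, but in 31.8% of cytoskeleton and 23.5% of vesicle windows. CHR and CCAAT together were in 68.2% of the mitosis windows, 6.95% of all and 5.05% of those of tested genes. These are matches of letters and were not tested as sites. The 150 bases before the start are printed for 3 genes of each list. They had the highest day 8 level per length among those with matches in these bases, of E2F for replication and of both CHR and CCAAT for mitosis. Promoters on a chromosome left out of printing were not considered. Capitals mark E2F matches in Mcm6 (chr1:128359706-128359855, minus strand), Mcm5 (chr8:75109359-75109508, plus strand) and Pola1 (chrX:93632156-93632305, minus strand), written 5′ to 3′ toward the start.
Mcm6: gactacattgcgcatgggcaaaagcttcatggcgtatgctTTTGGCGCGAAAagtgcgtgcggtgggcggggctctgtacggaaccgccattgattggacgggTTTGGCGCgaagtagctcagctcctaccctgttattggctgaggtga
Mcm5: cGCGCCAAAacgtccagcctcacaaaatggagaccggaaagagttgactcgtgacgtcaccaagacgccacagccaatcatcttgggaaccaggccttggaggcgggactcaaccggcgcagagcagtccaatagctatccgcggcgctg
Pola1: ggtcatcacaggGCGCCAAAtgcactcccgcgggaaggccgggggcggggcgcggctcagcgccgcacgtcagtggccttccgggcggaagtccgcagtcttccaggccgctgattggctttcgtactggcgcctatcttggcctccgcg
The helicase subunits Mcm6 and Mcm5 fell by 3.39 and 3.78 and the polymerase Pola1 by 3.08. In the mitosis genes Top2a (chr11:99024190-99024339, minus strand), Cdc20 (chr4:118437344-118437493, minus strand) and Mki67 (chr7:135716380-135716529, minus strand), capitals mark CHR and CCAAT matches.
Top2a: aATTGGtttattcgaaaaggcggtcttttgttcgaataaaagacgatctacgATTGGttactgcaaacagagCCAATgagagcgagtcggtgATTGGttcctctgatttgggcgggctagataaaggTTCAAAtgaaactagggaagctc
Cdc20: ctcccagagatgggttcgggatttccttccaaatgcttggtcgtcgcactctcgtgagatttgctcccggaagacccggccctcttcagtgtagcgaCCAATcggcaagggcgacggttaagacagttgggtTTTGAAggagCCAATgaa
Mki67: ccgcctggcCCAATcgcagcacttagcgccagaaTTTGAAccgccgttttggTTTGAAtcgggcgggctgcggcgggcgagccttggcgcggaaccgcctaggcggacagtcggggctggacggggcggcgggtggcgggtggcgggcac
Cdc20, the activator of the anaphase promoting complex, fell from 209 and 202 to 9.82 and 10.3 CPM (-4.35, SE 0.10, edgeR adjusted p = 2.34e-12).

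Genes linked to leaving the cell cycle did not move as one. Of 15 tested, 11 were lower and 4 higher, with a median of -1.73. Cdkn1c, an inhibitor of cyclin-dependent kinases known from newly born neurons, had 1070 and 1020 CPM at day 8 and 139 and 176 CPM at day 16 (-2.73, SE 0.15, edgeR adjusted p = 3.90e-09). The D cyclins, which drive entry into the cycle, all fell, Ccnd1 from 421 and 374 to 13.6 and 14 CPM (-4.85, SE 0.11), Ccnd2 by 2.34 and Ccnd3 by 2.56. The 4 that rose are Cend1, a neuronal protein that promotes exit (4.95, SE 0.11), the pocket protein gene Rbl2 (1.01) and the kinase inhibitors Cdkn2d (0.72) and Cdkn1a (0.56). Without clone 48 at day 16 the change of Cdkn1a was 0.25 (edgeR adjusted p = 0.0726). Cend1 was at 5.84 and 5.43 CPM on day 8 and 162 and 186 CPM on day 16. The pocket protein Rbl1 moved opposite to Rbl2 and fell by 3.04.

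Some paralogues known to be exchanged between progenitors and neurons moved in opposite directions. In the BAF chromatin remodelling complex, Actl6a, the subunit of progenitors, fell from 146 and 148 to 15.9 and 17.1 CPM (-3.15, SE 0.09, edgeR adjusted p = 8.35e-12). Its neuronal counterpart Actl6b rose from 8.14 and 5.65 to 131 and 137 CPM (4.28, SE 0.15, edgeR adjusted p = 4.84e-11). The subunits Ss18 and Ss18l1 traded places in the same way, with changes of -2.41 and 2.47. Per length, Actl6a was 49.8 and Actl6b 2.99 RPKM at day 8, and 5.33 and 54.9 RPKM at day 16. The exchange did not hold for the whole lists. Of 5 progenitor subunits 3 were lower and 2 not called, and of 5 neuronal subunits 3 were higher and 2 lower. Dpf1, a neuronal subunit, rose by 1.80, while Dpf3, listed with it, fell from 4.84 and 3.35 to 1.69 and 1.78 CPM (-1.23, SE 0.19). Phf10, the progenitor counterpart of these, was at 110 and 111 CPM and then at 110 and 48.8 CPM, so that it was lower in clone 48 alone, and it was not called (without clone 27 at day 16, -1.17 with edgeR adjusted p = 5.23e-06).

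Of 20 repressors and splicing regulators, 13 were higher and 5 lower (median 1.63). Rest, the repressor of neuronal genes outside neurons, fell from 34.5 and 31.4 to 10.6 and 10.8 CPM (-1.62, SE 0.10, edgeR adjusted p = 8.02e-09), and its cofactor Rcor2 from 189 and 190 to 13.0 and 16.6 CPM (-3.68, SE 0.12). Ptbp1, which blocks neuronal splicing in progenitors, fell from 515 and 484 to 72.9 and 60.3 CPM (-2.91, SE 0.12). Ptbp2, its neuronal paralogue, which is known to peak early in differentiation, was also lower, at 249 and 277 against 173 and 183 CPM (-0.56, SE 0.13, edgeR adjusted p = 0.00185). Among the activators of neuronal exons, Rbfox1 rose most, from 10.3 and 8.11 to 368 and 337 CPM (5.26, SE 0.14). Rbfox3, the source of the antigen NeuN, rose from 10.5 and 9.54 to 202 and 200 CPM (4.33, SE 0.10). Srrm4, a neuronal splicing factor, was not called, at 79.6 and 62.0 against 72.1 and 77.1 CPM, but was called without clone 27 at day 8 (0.27, edgeR adjusted p = 0.036).

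**Figure D2:**
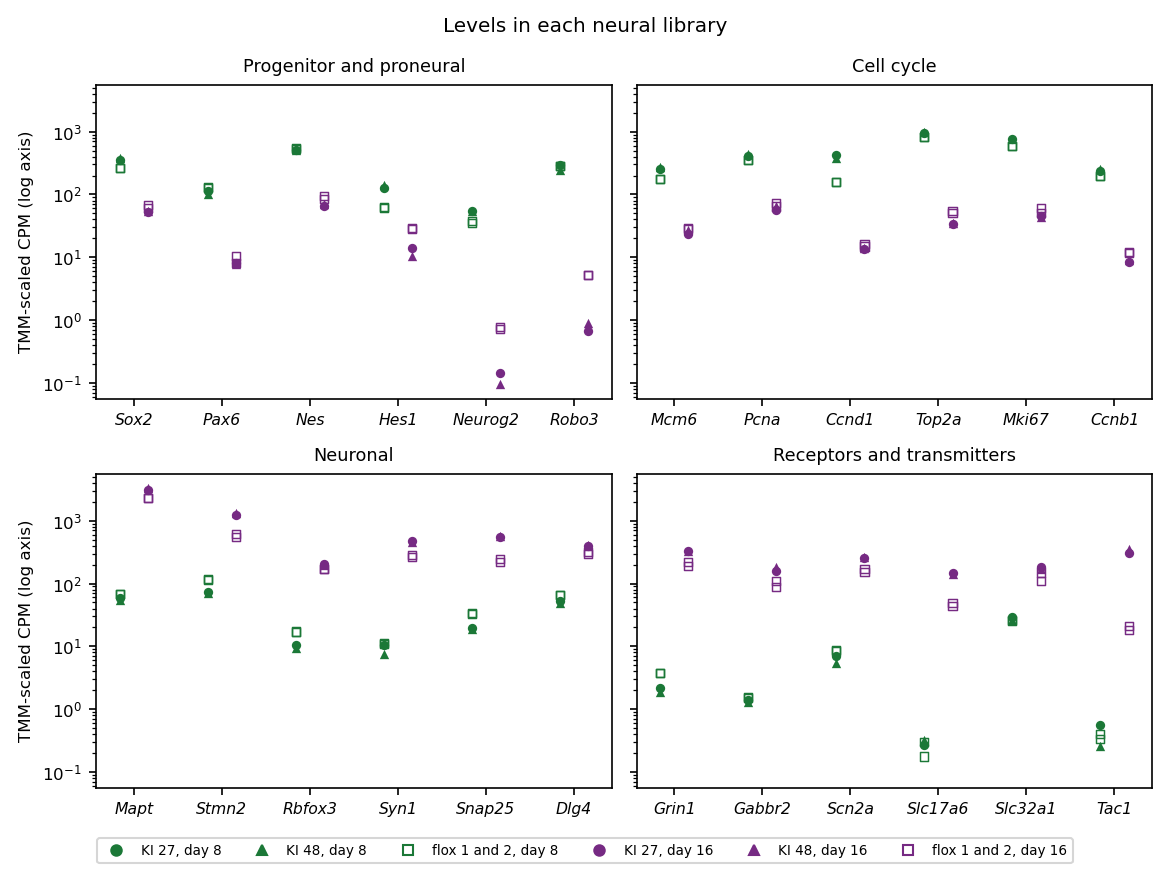
TMM-scaled CPM (log axis) of 24 genes in every neural library: filled circles are KI clone 27, filled triangles KI clone 48, open squares the 2 flox libraries, green day 8 and purple day 16. In KI the 2 days are apart for all 24 genes, as for Mki67 at 776 and 772 against 45.0 and 43.5 CPM.

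Genes of the neuronal cytoskeleton were mostly higher at day 16. Of 26 tested genes 24 were higher and 1 lower (median 2.65), and the list summed to 4569 and 4004 CPM at day 8 and to 25560 and 28120 CPM at day 16. Map1b, a microtubule-binding protein of growing axons, led the list with 1380 and 1310 CPM on day 8 and 4970 and 5460 CPM on day 16 (1.95, SE 0.10, edgeR adjusted p = 1.04e-09). Mapt, the axonal protein tau, rose from 59.3 and 55.6 to 3100 and 3340 CPM (5.81, SE 0.11, edgeR adjusted p = 1.37e-12), the largest change of the list. Tubb3, the neuronal tubulin often stained as a neuron marker, was already at 469 and 415 CPM on day 8 and rose to 1330 and 1770 CPM (1.81, SE 0.14). Per length, Tubb3 was at 172 and then 570 RPKM and Mapt at 7.14 and then 380 RPKM. The neurofilament subunits differed among themselves. Nefh, the heavy subunit known to come late, rose from 1.95 and 1.28 to 26.1 and 31.9 CPM (4.17, SE 0.19), and Nefl, the light subunit, from 280 and 259 to 696 and 776 CPM (1.45, SE 0.12). Nefm, the medium subunit, was the one called lower, from 50.5 and 43.8 to 35.2 and 38.2 CPM (-0.36, SE 0.10, edgeR adjusted p = 0.00647), a call lost without clone 27 at day 8 (edgeR adjusted p = 0.084) or day 16 (0.0559). Prph, the filament of peripheral neurons, stayed below 0.5 CPM in all 4 libraries and was not called, except without clone 27 at day 8 (1.21, edgeR adjusted p = 0.0195).

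Synapse genes rose nearly without exception. Of 35 tested vesicle and release genes 34 were higher and 1 lower (median 4.36), and of 25 postsynaptic and adhesion genes 24 were higher and 1 was not called (median 3.39). Syp, a vesicle membrane protein, rose from 27.7 and 25.5 to 821 and 840 CPM (4.97, SE 0.10). Syn2, a synapsin that tethers vesicles, rose most, from 1.15 and 0.958 to 202 and 191 CPM (7.54, SE 0.12, edgeR adjusted p = 1.32e-12). The clones were alike in both genes. Sypl, a relative of Syp found in many tissues, was the one lower, from 28 and 31.4 to 23.4 and 19.7 CPM (-0.46, SE 0.13), and without clone 48 at day 8 or day 16 it was not called (edgeR adjusted p = 0.0782 and 0.0596). On the other side of the synapse, the adhesion gene Nrxn2 rose by 4.48 (SE 0.13), to 1080 and 1180 CPM. Dlg4, a scaffold of excitatory synapses, rose from 51.8 and 48.3 to 396 and 404 CPM (3.00, SE 0.10). Camk2b rose from 5.77 and 5.35 to 314 and 339 CPM, but Camk2a, the kinase subunit known to come with maturation, reached only 8.5 and 9.82 CPM (2.44, SE 0.15). Nptx1, a secreted pentraxin, was not called, at 23.1 and 25.5 against 25.1 and 23.5 CPM.

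Receptors and channels followed. Of 26 glutamate receptor genes 23 were higher and 2 lower (median 4.05), all 17 tested GABA and glycine receptor genes were higher (median 4.68), and so were all 30 voltage-gated channel genes (median 4.48). Grin1, the subunit every NMDA receptor needs, rose from 2.15 and 1.86 to 334 and 327 CPM (7.37, SE 0.14, edgeR adjusted p = 1.37e-12). Of its partners at day 16, Grin2b was at 11.6 and Grin2a at 2.28 RPKM, and Grin2b is known as the earlier of the pair. Grm5, a metabotropic receptor, had the largest change of the receptor lists, from 0.533 and 0.619 to 257 and 249 CPM (8.77, SE 0.15). The 2 receptor genes that fell are metabotropic, Grm2 from 23.6 and 22.3 to 4.99 and 5.8 CPM (-2.08, SE 0.12) and Grm6 from 0.178 and 0.0799 CPM to 0 and 0.019 CPM. The call of Grm6, which rests on few reads, was lost without clone 27 at day 8 or day 16 (edgeR adjusted p = 0.0721 and 0.0588). Gabbr1, a subunit of the metabotropic GABA receptor, rose from 75.7 and 66.6 to 740 and 761 CPM (3.40, SE 0.10), and its partner Gabbr2 from 1.38 and 1.28 to 161 and 181 CPM (7.01, SE 0.15). Both were present at day 8, but at 10.6 and 0.222 RPKM. Among the channels, the sodium channel subunit gene Scn3b reached the highest day 16 level, 348 and 349 CPM from 3.73 and 4.55 CPM (6.39, SE 0.13). Kcnj6, a potassium channel subunit, had 0 reads in both day 8 libraries and 4.95 and 5.48 CPM at day 16. Slc12a5, the transporter that lowers chloride and makes GABA inhibitory, rose from 24.6 and 21.3 to 604 and 613 CPM (4.73, SE 0.12), while Slc12a2, which loads chloride, fell by 0.47 (SE 0.11, edgeR adjusted p = 0.0018).

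The transmitter genes divide into those that came up and those that were lost. Slc17a6, the vesicular glutamate transporter VGLUT2, rose from 0.266 and 0.319 to 148 and 144 CPM (8.94, SE 0.17, edgeR adjusted p = 1.37e-12). Its paralogues fell, Slc17a7 from 0.799 and 0.499 to 0.163 and 0.152 CPM (-2.02, SE 0.44) and Slc17a8 from 12.7 and 7.87 to 0.489 and 0.417 CPM (-4.50, SE 0.27). Of the 3 transporters, Slc17a8 was thus the highest at day 8 and Slc17a6 the highest at day 16 on the length-corrected scale too, at 1.55 and 21.4 RPKM. Inhibitory markers rose with it: Slc32a1, the vesicular transporter of GABA and glycine, from 29.8 and 26.2 to 184 and 172 CPM (2.67, SE 0.13), Gad1, which makes GABA, from 9.72 and 6.63 to 151 and 162 CPM (4.27, SE 0.15), and Slc6a5, the glycine transporter of glycinergic neurons, from 6.10 and 4.19 to 63.9 and 48.9 CPM (3.46, SE 0.17). Slc6a9, the other glycine transporter, rose from 48.1 and 40.8 to 181 and 71.0 CPM (1.51, SE 0.46, edgeR adjusted p = 0.0304), with the clones far apart at day 16. The call of Slc6a9 was lost with a block for the clones (1.36, edgeR adjusted p = 0.0513), in the KI libraries alone (1.48, 0.164), without a filter on low counts (1.47, 0.0527), and without any 1 of the flox libraries (0.058 to 0.08), clone 27 at day 8 (1.64, 0.0671) or clone 48 at day 8 (1.40, 0.0994). Genes of dopamine synthesis and monoamine storage went down from low levels. Th, which makes dopamine precursors, fell from 0.999 and 0.998 to 0.0204 and 0 CPM (-6.34, SE 0.52), Ddc by 4.74 and Slc18a2 by 0.56. Chat, which makes acetylcholine, stayed at or below 0.0948 CPM. In all, 9 of 16 tested transmitter genes were higher and 5 lower (median 1.20).

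Of 25 tested neuropeptide and granin genes, 14 were higher and 7 lower (median 1.54). Tac1, the precursor of substance P, rose from 0.555 and 0.260 to 305 and 354 CPM (9.68, SE 0.21, edgeR adjusted p = 2.09e-12), and at 203 RPKM it was the highest peptide gene of the list at day 16. Penk, the enkephalin precursor, rose from 1.73 and 1.20 to 69.7 and 68.7 CPM (5.57, SE 0.15). The granins of dense-core vesicles rose too, Scg2 by 7.54, Chga by 4.53 and Chgb by 3.20. Cartpt fell the most, from 3.97 and 5.15 to 0.958 and 1.02 CPM (-2.20, SE 0.18). Vip, Avp, Oxt and Hcrt, at 9 reads or fewer in any neural library, were too low to be tested.

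Postmitotic subtype factors were mixed. Of 49 listed, 46 were tested, with 15 higher, 23 lower and 8 not called (median -0.51), so that the share called was near that of all genes. Myt1l, a factor that represses other lineages in neurons and the highest of the list at day 16, rose from 14.4 and 11.6 to 313 and 325 CPM (4.62, SE 0.12, edgeR adjusted p = 4.88e-12). Pou4f1 and Pou4f2, POU factors of sensory neurons, rose to 114 and 137 CPM (3.71, SE 0.14) and to 23.1 and 23.1 CPM (4.54, SE 0.17). Bcl11a, a zinc finger factor, rose from 93.2 and 95.4 to 234 and 256 CPM (1.38, SE 0.09). Ebf2 showed the largest fall, from 12.2 and 9.84 to 1.65 and 1.16 CPM (-2.97, SE 0.21), while its paralogues Ebf1 and Ebf3 rose by 2.81 and 1.85. Lhx1, the highest at day 8, fell by 0.51 and Lhx5 by 2.66, both LIM factors of interneurons. The motor neuron factor Mnx1 was at 9.19 and 9.74 against 7.54 and 7.71 CPM and not called (-0.31, edgeR adjusted p = 0.0604, and 0.00509 to 0.0495 in 8 alternatives). Isl1 fell by 0.88 from 3.97 and 2.60 CPM, a call lost without clone 27 at day 8 (-0.54, edgeR adjusted p = 0.0744).

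Axon guidance genes rose in 25 and fell in 7 of 34 cases (median 0.67), with a shift among the receptors of the Robo family. Robo3, which lets axons cross the midline by blocking the response to Slit, fell from 299 and 243 to 0.672 and 0.891 CPM (-8.43, SE 0.17, edgeR adjusted p = 1.37e-12). Its paralogues, the repulsive receptors, moved up, Robo2 from 16.3 and 14.9 to 418 and 420 CPM (4.75, SE 0.12) and Robo1 by 0.69 (SE 0.10). The ligand Slit1 rose by 2.65 (SE 0.11). Per length, Robo3 was at 38.4 RPKM on day 8, above Robo1 at 15.9 and Robo2 at 1.30, and at 0.105 RPKM on day 16, below both at 24.4 and 33.1. L1cam, an adhesion molecule of axon bundles, was the highest of the list at day 16, with 729 and 719 CPM from 27.3 and 24.0 CPM (4.82, SE 0.11). Cntn1 rose most, from 6.79 and 4.57 to 439 and 423 CPM (6.25, SE 0.17).

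Most genes of retinoic acid response and turnover fell. Of 18 tested, 15 were lower and 2 higher (median -2.22). Crabp2, a carrier of retinoic acid to its receptors, fell from 385 and 509 to 1.41 and 1.55 CPM (-8.23, SE 0.17, edgeR adjusted p = 1.65e-12). Cyp26a1, the degrading enzyme induced by the agent, fell from 83.9 and 101 to 1.26 and 0.815 CPM (-6.48, SE 0.17), and the receptor Rarb, likewise induced, from 333 and 347 to 60.8 and 53.4 CPM (-2.57, SE 0.10). The 2 that rose did so from low levels, Rxrg from 0.0888 and 0.160 to 2.12 and 2.54 CPM and Aldh1a3 from 0.244 and 0.0998 to 0.937 and 0.910 CPM.

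Hox genes, which set position along the body axis, moved both ways. Of 39 listed 31 were tested, with 19 lower and 6 higher (median -1.0). Among the falls were anterior paralogues, Hoxb1 from 39.7 and 31.0 to 0.122 and 0.0758 CPM (-8.45, SE 0.26, edgeR adjusted p = 1.74e-11) and Hoxd1 from 8.14 and 7.97 to 0.163 and 0.303 CPM (-5.08, SE 0.25). Hoxd4 fell by 3.66. The 6 that rose are Hoxb5, Hoxb7, Hoxb8, Hoxc4, Hoxc6 and Hoxc10. Hoxc10, below 1 CPM, was not called by DESeq2 (adjusted p = 0.145) or without clone 48 at day 8 (0.96, edgeR adjusted p = 0.0885). Within the B cluster, Hoxb2, Hoxb3 and Hoxb4 changed by -1.83, -1.26 and -2.34, whereas Hoxb5, Hoxb7 and Hoxb8 rose by 0.83, 0.67 and 0.95 and Hoxb6 was not called (-0.04, or -0.24 with edgeR adjusted p = 0.0369 on library totals). The order in the B cluster was described after its values were seen. Hoxb8 reached the highest day 16 level, 669 and 806 CPM from 416 and 346 CPM, and Hoxc6 rose by 1.23, the largest rise among Hox genes above 1 CPM. None of the 6 belongs to the A or D cluster, where Hoxd8 and Hoxd9 fell by 1.61 and 1.47.

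The 12 largest rises and 12 largest falls among called genes (at least 10 CPM in the higher group and 2-fold in both clones) add genes outside these lists. Htr2c, a serotonin receptor, rose from 0.111 and 0.020 to 53.9 and 48 CPM (9.60, SE 0.30), and Plppr4, a membrane protein of excitatory synapses, from 0.244 and 0.180 to 141 and 109 CPM (9.20, SE 0.22). Slc4a10, a bicarbonate transporter, Fxyd7, a regulator of the sodium pump, Rasgrf2, an exchange factor for Ras, and Cdh9, a cadherin, rose by 8.5 to 8.79 on the log2 scale. Vwc2l had 1 read in the day 8 libraries together and 1079 and 886 reads at day 16, a ratio of 1840 (95% counting interval 329 to 72600). Pla2g4e, also with 1 read at day 8, gave a ratio of 1200 (215 to 47500), and Tafa1, with 2 reads, 598 (165 to 4940). Among the falls, epithelial genes stood beside the progenitor genes already given. Cldn4, a tight junction protein, fell from 27.5 and 38.7 to 0.0611 and 0.0379 CPM (-9.32, SE 0.29, edgeR adjusted p = 1.82e-11), Krt8 and Krt18, paired keratins of simple epithelia, by 8.61 and 7.48, and Cdh1, the epithelial cadherin, from 27 and 32.4 to 0.224 and 0.114 CPM (-7.45, SE 0.22). Msx2, a homeobox gene of dorsal midline and surface tissue, completed the 12 with a fall of 7.45.

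Markers of other cells moved as well, and their part in the neuronal results was not tested. Mesenchyme genes were higher for 12 of 15 and lower for 1 (Twist1), and the list summed to 337.1 and 264.0 CPM at day 8 and 1866 and 1517 CPM at day 16. The collagen gene Col3a1 was the highest, at 722 and 565 CPM from 88.9 and 62.2 CPM (3.09, SE 0.17), and Dcn rose most, by 6.03 (SE 0.34). Genes of astrocytes and radial glia were higher for 11 of 14, with a sum of 562.3 and 610.3 CPM at day 8 and 917.2 and 1031 CPM at day 16. Aldh1l1, a widely used astrocyte marker, rose from 0.488 and 0.439 to 91.8 and 107 CPM (7.74, SE 0.16), but Gfap reached 1.71 and 1.82 CPM and Aqp4 0.183 and 0.227 CPM, and S100b was too low to be tested. In the oligodendrocyte list 6 of 11 were higher and 2 lower, the sum going from 50.48 and 44.35 to 103.4 and 103.0 CPM, with Sox10, called lower, at or below 0.220 CPM throughout. That call was lost with a block for the clones (edgeR adjusted p = 0.0512), by DESeq2 (0.157) and without clone 27 at day 8 or clone 48 at either day (0.0632 to 0.152). Endothelial genes fell in 8 of 12 cases (sums of 44.63 and 37.11, then 12.75 and 8.549 CPM). Endoderm genes fell in 12 of 17 cases (282.6 and 255.0, then 86.58 and 61.16 CPM), with a median of -3.12, or -2.30 with genes at 0 set to their limit. Of 13 tested cardiac and skeletal muscle genes 6 were higher and 4 lower (median -0.10), and the sum went from 7.964 and 8.966 to 202.2 and 212.2 CPM. Most of that sum was Ryr2, a calcium release channel known from heart and neurons and named after its values were seen, which rose from 1.53 and 1.58 to 195 and 204 CPM (7.0, SE 0.11). The defining heart gene Tnnt2 was at or below 0.133 CPM. Neural crest and Schwann genes were higher for 2 and lower for 4 of 11, with sums of 101.1 and 84.2, then 107.9 and 107.8 CPM. Of 14 blood and macrophage genes 3 could be tested, and the haemoglobin genes Hba-x and Hbb-bh1 were at 0 reads in both day 16 libraries. Their calls were lost without clone 48 at day 8 (edgeR adjusted p = 0.0661 and 0.153) and without either day 16 library (0.0531 to 0.0686).

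Set beside flox, the same transition called 12678 genes (77.1%), and 6961 (42.3%) at 2-fold. In both genotypes 5950 genes changed at least 2-fold in the same direction, which is 73.9% of those of KI and 85.5% of those of flox, and 63 did so in opposite directions. The difference of the 2 changes was tested as an interaction. It was called for 5450 genes (33.2%), 3150 with a more positive change in KI (19.2%) and 2300 with a more negative one (14.0%). At 2-fold or more, 2189 genes (13.3%) differed, 1039 of them with a more positive change in KI (6.32%) and 1150 with a more negative one. The split of the 5450 depends on scaling: with library totals in place of TMM, 1915 of 5094 (37.6%, against 57.8%) were more positive, and the median difference over all genes moved from 0.08 to -0.09. Between the 2 KI libraries of a day, chi-square per degree of freedom was 22.2 at day 8 and 54.83 at day 16. The p-values within KI share 1 estimate of the spread with flox. The 2 flox libraries of day 8 differed by little more than counting noise (1.5), so the spread of this group may be understated. Without either of them 3663 or 3621 genes were called.

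Genes of the cell cycle, the neuronal cytoskeleton and synaptic vesicles changed further in KI than in flox, and their summed levels differed at day 8 already. Mitosis genes summed to 5389 and 5610 CPM in KI and 4366 and 4372 CPM in flox at day 8. At day 16 the sums were 312.2 and 322.2 against 419.5 and 389.5 CPM. Replication genes summed to 4170 and 4160 against 3207 and 3228 CPM at day 8. Cytoskeleton genes summed lower in KI at day 8, to 4569 and 4004 against 5078 and 5085 CPM. Vesicle genes did so too, at 907.8 and 817.8 against 1150 and 1148 CPM. Counts by list are to be read against all tested genes, of which 19.2% were more positive and 14.0% more negative in KI. The interaction was more negative in KI for 20 of 27 replication genes and 24 of 28 mitosis genes (medians -0.75 and -0.64, against 0.08 for all genes). It was more positive for 22 and more negative for 0 of 26 cytoskeleton genes, for 28 and 1 of 35 vesicle genes and for 18 and 3 of 30 channel genes (medians 1.11, 1.00 and 0.78). In the same order it was called for 14 and 2 of 26 glutamate receptor genes, 8 and 0 of 17 GABA and glycine receptor genes and 14 and 1 of 25 postsynaptic genes. It was more positive for 14 and more negative for 4 of 34 axon guidance genes, for 12 and 8 of 46 subtype factors, for 6 and 3 of 25 neuropeptide genes, and for 3 and 3 of 16 transmitter genes, the shares of the last 2 lists being near those of all genes. Snap25, a fusion protein of synaptic vesicles, had 558 and 575 CPM at day 16 in KI, and rose by 4.88 in KI and 2.81 in flox (interaction 2.07, edgeR adjusted p = 1.03e-06). The day 8 level was higher in flox, at a mean of 33.5 CPM against 19.6 and 18.9 CPM in KI. Stmn4, a tubulin-binding protein, rose by 5.76 in KI and 3.51 in flox (interaction 2.26, edgeR adjusted p = 1.61e-06). Hes1 went the other way and fell by 3.44 in KI against 1.09 in flox (interaction -2.34, edgeR adjusted p = 2.44e-06), while Hes5, another target of Notch, fell less in KI (-2.12 against -3.63, interaction 1.50, edgeR adjusted p = 0.000113). Over proneural genes the interaction was more negative in KI for 12 of 21 and more positive for 3. Mesenchyme genes summed to 4867 and 5124 CPM in flox at day 16, above the 1866 and 1517 CPM of KI, and 7 of 15 had a more negative interaction. Their part in the neuronal differences was not tested. The mesothelium and surface epithelium list was more negative in KI for 9 of 12, with a median of -4.20, its sum falling from 184.7 and 222.6 to 11.70 and 7.983 CPM in KI and going from 269.9 and 273.5 to 248.8 and 260.0 CPM in flox.

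**Figure D3:**
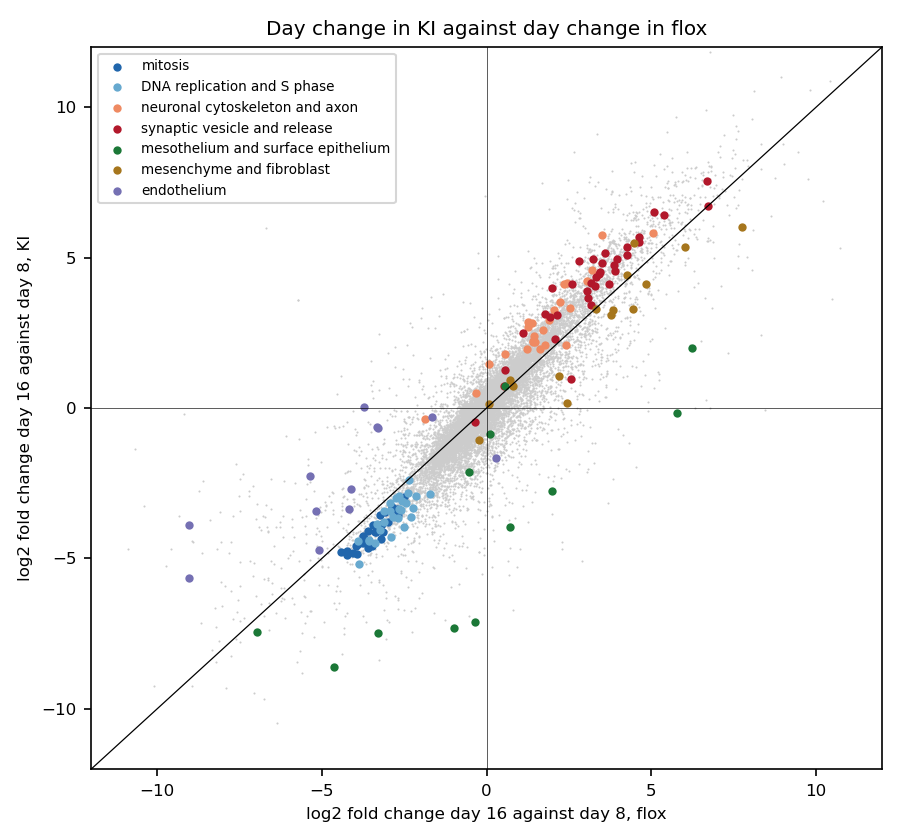
Log2 fold change between day 8 and day 16 in KI (vertical) against flox (horizontal) for 16439 genes (grey), with 7 lists in colour and the line of equal change. All mitosis and replication genes lie below the line at the lower left, vesicle and cytoskeleton genes mostly above it at the upper right, and mesothelium and epithelium genes below it (median difference -4.20).

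The 8 largest differences each way, among genes with both KI changes on one side of both flox changes, included genes of other lineages. On the positive side were Tie1, Cd93, Vwf and Cldn5, which are known from endothelium, with Hk3, a hexokinase, and Asb4. These 6 fell in both genotypes. They reached the 10 CPM asked of a named gene only in flox at day 8, so a lower start in KI was favoured by the choice. Their sizes are fitted values that, Asb4 apart, rest on 0 to 9 reads in each flox library of day 16, and their order is not exact. Tie1 had 2.04 and 1.28 CPM in KI against 17.1 and 17.9 CPM in flox at day 8 and ended at 0.204 and 0.019 CPM in KI and 0.0527 and 0 CPM in flox. The differences of Tie1, Cd93, Vwf and Cldn5 rest on clone 27 at day 16: without it they were 2.77, 2.38, 1.99 and 1.85 (edgeR adjusted p = 0.421, 0.104, 0.373 and 0.241). Flox libraries mattered too: the call was lost for Vwf without either one of day 8 (0.0564 and 0.0589), for Cd93 without replicate 1 of day 16 (0.0501) and for Cldn5 without replicate 2 of day 16 (0.059). Tac1 was on this side with a rise to 305 and 354 CPM in KI and 21.2 and 18.1 CPM in flox (interaction 3.92, SE 0.42, edgeR adjusted p = 3.64e-05), from similar starting levels. Crym, a thyroid hormone binding protein, rose by 3.70 in KI and fell by 1.69 in flox (interaction 5.38, SE 0.23, edgeR adjusted p = 9.49e-08). On the negative side, Krt19 fell from 20.1 and 30.4 to 0.143 and 0.171 CPM in KI but was still at 13.0 and 17.1 CPM in flox (interaction -6.32, SE 0.38, edgeR adjusted p = 9.38e-07). Gfap, the astrocyte filament, was at 1.71 and 1.82 CPM in KI and 19.2 and 23.4 CPM in flox at day 16 (interaction -5.41, SE 1.23, edgeR adjusted p = 0.00546, and 0.139 without clone 48 at day 8). The choice favoured such differences here too, since C3, Ltbp2, Gfap and Upk3b reached 10 CPM only in flox, and Crym and Atoh8 only in KI. C3, a complement gene, was below 0.6 CPM in every KI library and at 75.4 and 80.1 CPM in flox at day 16.

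Clones 27 and 48 changed alike, with an SD of 0.32 between their log2 ratios, and no tested gene moved 2-fold up in one and 2-fold down in the other. In 162 genes (0.985%) the changes of the clones differed at least 2-fold. The 6 genes that differed most were Meg3, Rian, Peg13, Lars2 and the copies Mir1906-1 and Mir1906-2, which hold the same reads and cannot be told apart. Meg3, an imprinted non-coding RNA expressed from the maternal chromosome, had 96.7 CPM in clone 27 and 1.76 CPM in clone 48 on day 8, and 3030 and 4.38 CPM on day 16. Rian, from the same locus, had 50.2 and 0.898 CPM, then 589 and 2.10 CPM. Both are thus high in clone 27 and near absent in clone 48 on either day, and the same is seen for Mir1906-1 (1.84 and 0, then 21.7 and 0.0758 CPM). Peg13, an imprinted RNA of another locus expressed from the paternal chromosome, showed the reverse, with 0.444 and 42.7 CPM, then 0.958 and 550 CPM. The clones enter the fit as replicates, and the changes of Meg3, Rian, Peg13 and Mir1906-1 were not called in KI (edgeR adjusted p = 0.222, 0.289, 0.293 and 0.212). With a block for the clones Rian, Peg13 and Mir1906-1 were called (3.09, 3.43 and 3.56, edgeR adjusted p = 0.0473, 0.0234 and 4.89e-16), by DESeq2 Meg3 was (4.92, adjusted p = 0.0373), and without clone 48 at day 16 Mir1906-1 was (4.59, edgeR adjusted p = 0.0108). Both flox libraries had these RNAs, with Meg3 at 989 and 914 CPM and Peg13 at 212 and 201 CPM at day 16.

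The other KI cultures, examined after these values were seen and as CPM of gene-level totals without TMM scaling, show the same clones apart. Meg3 was at 160 CPM in clone 27 and 0.799 CPM in clone 48 in undifferentiated stem cells, at 539 and 0.750 CPM in embryoid bodies of day 10, and at 376 and 0 CPM in extraembryonic endoderm cultures. Peg13 was at 0.0424 and 3.53 CPM in stem cells and 0.153 and 20.0 CPM in embryoid bodies of day 10. These differences were present in cultures that were not neural. Lars2, a mitochondrial leucyl-tRNA synthetase, did not follow this pattern. It was at 133 and 126 CPM on day 8, and at 1390 CPM in clone 27 but 230 CPM in clone 48 on day 16 (edgeR adjusted p = 0.058), a change of 0.84 without clone 27 and of 3.40 without clone 48 at day 16 (edgeR adjusted p = 0.00816 and 3.97e-07). DESeq2 called Lars2 with all libraries (2.62, adjusted p = 0.00127). In stem cells Lars2 was at 51.9 and 64.9 CPM of gene-level totals. Dlk1, a paternally expressed gene beside Meg3 and a listed member of the Notch group, was at 36.1 and 54.9 CPM on day 8 and 16.4 and 28.1 CPM on day 16, present in both clones (-1.03, SE 0.28, edgeR adjusted p = 0.0121, 0.0868 in the KI libraries alone and 0.0562 without a filter on low counts).

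**Figure D4:**
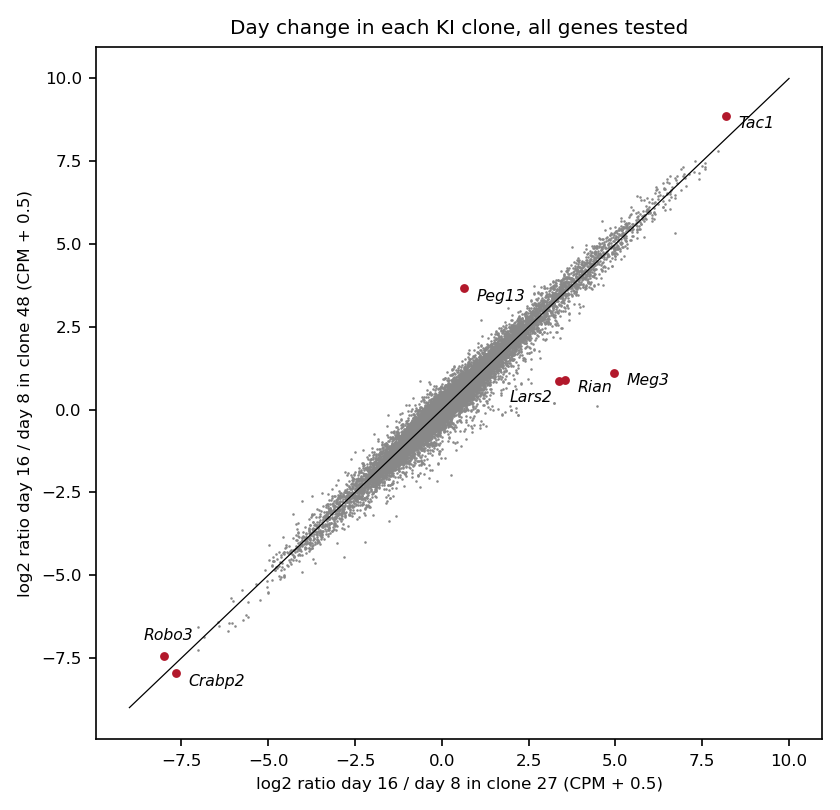
Log2 ratio of day 16 to day 8 in clone 27 (horizontal) and clone 48 (vertical), with 0.5 CPM added, for the 16439 tested genes, and the line of equal change. Nearly all genes lie along the line (r = 0.983), while Meg3, Rian and Lars2 lie below it and Peg13 above it.

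**Figure D5:**
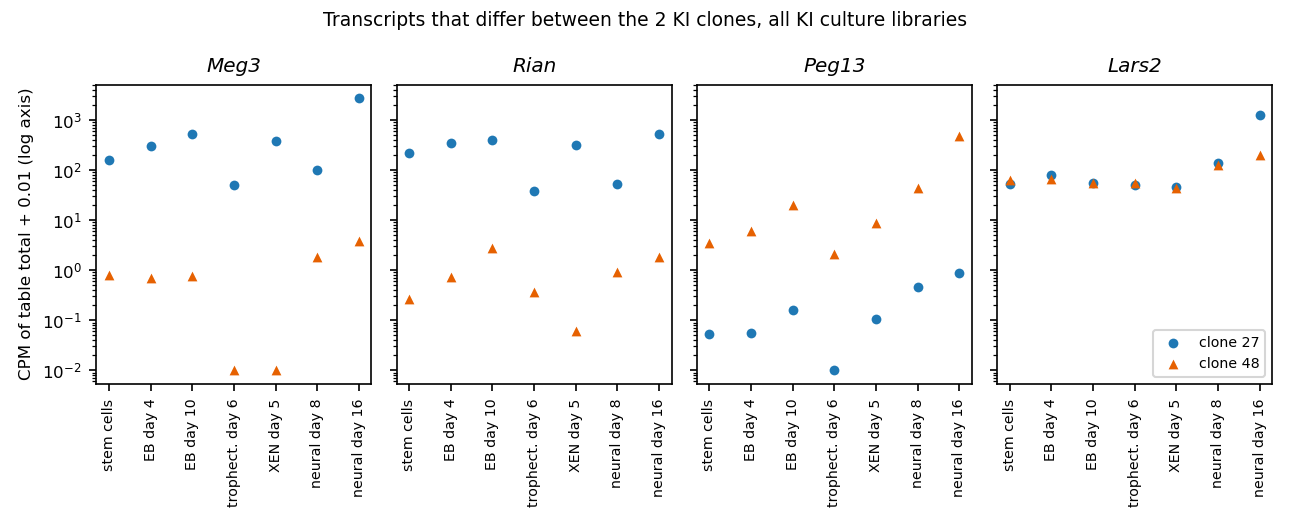
CPM of gene-level totals (the axis label says table total) with 0.01 added (log axis) of 4 genes in 7 kinds of KI culture. Circles are clone 27 and triangles clone 48. Meg3 and Rian are higher in clone 27 and Peg13 in clone 48 in all 7 kinds, while Lars2 is apart only in neural cultures of day 16, at 1265 and 202 CPM.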

How the data were processed

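RNA was read from poly(A) libraries. The deposited tables hold a whole-number read count and an RPKM value per RefSeq transcript, per the file headers; the submitters' processing notes name STAR and the build mm9, without roles or versions. RPKM values, as deposited by the authors, were used only to describe levels, between genes and between days, and entered no test. The use of strand is not given in the sources used here, so overlapping antisense genes cannot be separated. Per gene, the transcript with the most reads over the 37 RNA tables was kept. Unmatched accessions held 1.49% to 2.13% of the reads.

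The 8 neural libraries (39015978 to 59880727 reads, 4 groups of 2) entered 1 edgeR 4.0.16 fit (R 4.3.3; filterByExpr with a minimum of 10 reads, TMM, estimateDisp and glmQLFit with robust estimation), with 3 contrasts, Benjamini-Hochberg adjusted over 16439 genes. Each standard error came from the F statistic, whose root is the size of the change in units of its error. The pipeline was tested on simulated data. KI numbers name clones and so pair the KI samples (correlation of deviations 0.25), while flox numbers name replicates (0.08). Members and gene lists were chosen with earlier results of these data known. Named genes were the 12 largest rises and falls, the 8 largest interactions each way, the 6 genes whose clones differed most, and for each list the highest pair, the largest rise and fall, up to 5 members called against the majority and known partners, plus Kmt2c and Kmt2d; others were added after their values were seen. The listed genes Cd68, Scn9a and Syt5 were not analysed here, and some named genes are not reported here. Alternatives were the KI libraries alone, a clone block, DESeq2 1.42.0, other scalings and filters, summed transcripts, and each library left out.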

Additional observations from a re-analysis of the deposited data

Results flagged for a closer look

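The change from day 8 to day 16 differed between KI and flox by a test of the difference itself for 5450 genes (33.2% of those tested, edgeR's quasi-likelihood interaction with Benjamini-Hochberg adjustment over 16439 genes). Among the genes named for the largest differences, the change was more positive in KI for Hk3 (5.71 on the log2 scale), Crym (5.38), Tie1 (5.14), Cd93 (4.66), Vwf (4.43), Tac1 (3.92), Asb4 (3.74) and Cldn5 (3.37). Of these, Tac1 and Crym rose in KI, and the other 6 fell less in KI than in flox. Those 6 reached the 10 CPM asked of a named gene only in flox at day 8, so a lower start and a smaller fall in KI were favoured by the choice. The differences of Tie1, Cd93, Vwf and Cldn5 were 2.77, 2.38, 1.99 and 1.85 without clone 27 at day 16 and were then not called (edgeR adjusted p = 0.421, 0.104, 0.373 and 0.241). Hk3 and these 4 were at 0 to 9 reads in each flox library of day 16, so their sizes are uncertain. The change was more negative in KI for Krt19 (-6.32), C3 (-5.94), Ltbp2 (-5.50), Gfap (-5.41), Msx2 (-5.20), Adgrg6 (-4.69), Upk3b (-4.64) and Atoh8 (-4.62). That of Gfap was -4.56 without clone 48 at day 8 and not called (edgeR adjusted p = 0.139). Ltbp2 and Gfap rose in KI, but less than in flox, where Ltbp2 reached 29.7 and 35.7 CPM at day 16 against 0.978 and 0.607 CPM in KI. Both reached the 10 CPM asked of a named gene only in flox, so a smaller rise in KI was favoured by the choice. C3 and Upk3b also reached it only in flox, and Crym and Atoh8 only in KI. Adgrg6, an adhesion receptor of the G protein-coupled class, fell from 84.9 and 83.7 to 2.38 and 1.88 CPM in KI and was at 16.6 and 16.9, then 12.0 and 9.85 CPM in flox. Atoh8, a bHLH gene, fell from 24.7 and 23.3 to 1.18 and 1.06 CPM in KI, with 5.12 and 5.55, then 5.50 and 6.88 CPM in flox. The groups hold 2 libraries each, so no library could be tested for standing apart from its group.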

How the results depend on the processing

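The 13130 genes called in KI became 12659 in a fit of the 4 KI libraries alone, 12660 with DESeq2, 13116 with its size factors, 13266 on library totals, 13388 without a filter on low counts, 13125 with transcripts summed, 13023 without the 100 most abundant genes, and 12318 to 13404 with a library left out. At 2-fold, 8052 became 7798 to 8375 over the same alternatives, and 7870 to 8131 with a library left out. The difference between KI and flox was called for 5044 to 5488 genes in place of 5450 under the tool, scaling, filter, transcript and abundance alternatives, and for 3621 to 6038 with a library left out. It moved by over 1.5 times without flox replicate 2 of day 8, to 3621, of which 3588 were among the 5450. A lone library left in a group is assumed to vary like the other groups.

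With the clone or replicate number as a block, the counts were 13219, 8065 at 2-fold and 5914 for the difference. The block is a pairing by clone in KI, and in flox it shares only a number. It changed 6 of the 222 gene results named in the text, those of Slc6a9, Sox10, Rian, Peg13, Mir1906-1 and Mir1906-2.

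Of 3522 values for named genes under these alternatives, 3453 kept direction and side of the threshold, 45 lost a call, 24 gained one and 0 reversed. For 190 of the 222 results no alternative changed the call. Levels below about 1 CPM rest on few reads, and groups of 2 limit every test here.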
